A study of Homo sapiens with 5 samples.

Results

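The genes described here are 9 genes of vitamin A (retinoid) handling and signalling and of the chemerin pathway, out of 19936 human genes with values in every library: LRAT, STRA6, CRABP1, CRABP2, RARA, RARB, RARG, RXRA and RARRES2. They were given by name, as genes that tell which vitamin A functions the cells still express, and each was found under its current symbol through its Ensembl gene ID. The cells are LX-2, an immortalised line made from human hepatic stellate cells, so every library comes from a single line in culture. RNA was collected 48 h after transfection with a control small interfering RNA (siRNA; 2 libraries, control 1 and 2) or with siRNA against LIX1L (3 libraries, siLIX1L 1, 2 and 3). The series title links LIX1L to the stability of the chemokine CCL20 and to fibrosis, and the comparison asks which genes differ when LIX1L is reduced. The siRNA sequences and their number, any untransfected cells and the culture behind each library are not given in the labels, so the p-values below measure only the spread between these libraries.

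Stellate cells are the main vitamin A store of the liver and are known to lose this store when they become matrix-producing myofibroblasts. Retinol arrives on its plasma carrier, can be taken up through STRA6, and is esterified for storage in lipid droplets by LRAT. Retinol can also be oxidised in steps to retinoic acid, which the cytoplasmic proteins CRABP1 and CRABP2 bind. CRABP2 passes it on to the nuclear retinoic acid receptors RARA, RARB and RARG, which sit on DNA paired with a rexinoid receptor such as RXRA. RARRES2 encodes chemerin, a secreted protein that attracts leukocytes after proteases trim it, and it was named as a gene that responds to a retinoid receptor agonist. Liver and fat tissue are its best known sources.

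The DNA to which such receptor pairs bind best is a direct repeat of a 6-base site, and the stretches below show where it stands, or does not stand, next to the start sites of the genes. All 9 genes had at least 1 start site in RefSeq (GRCh38.p14), with 19 windows of 300 bases in all, from 250 bases before to 50 after the start. The hexamer AGGTCA and its common variants (AGTTCA as the first, GGGTCA as the second and GGTTCA as the last) were searched on both strands, alone and as direct repeats spaced by 1, 2 or 5 bases, in any mixture. At least 1 hexamer was in 38.6% of 35116 windows of this length across the genome, whereas repeats with a spacing of 1, 2 and 5 were in 0.131, 0.0399 and 0.0883%. Among the 19 windows, 1 held a spaced repeat: the window of 1 of the 4 RARB start sites, with a spacing of 5, from 53 to 37 bases before the start (chr3:25428163-25428262, + strand, inside the span of RARB). CYP26A1, which encodes a retinoic acid hydroxylase, is printed for comparison, since it holds a repeat of the same spacing on the opposite strand, from 90 to 74 bases before the start (chr10:93073773-93073872, + strand). The RARRES2 window held 2 hexamers that touch, with no spacing, from 205 to 200 and from 199 to 194 bases before the start (chr7:150341730-150341879, - strand). Capitals mark the hexamers of a spaced repeat in RARB and CYP26A1 and the single hexamers in RARRES2, and each line runs 5′ to 3′ in the direction of the gene.
RARB: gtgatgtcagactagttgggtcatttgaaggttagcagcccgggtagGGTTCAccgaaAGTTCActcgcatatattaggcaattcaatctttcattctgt
CYP26A1: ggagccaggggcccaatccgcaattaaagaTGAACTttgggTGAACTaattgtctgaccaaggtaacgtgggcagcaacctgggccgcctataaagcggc
RARRES2: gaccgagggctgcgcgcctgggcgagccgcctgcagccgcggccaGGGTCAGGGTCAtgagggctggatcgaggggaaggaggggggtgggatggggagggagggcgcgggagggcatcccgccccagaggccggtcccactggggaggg
A match is a description of the letters and says nothing of binding in these cells.

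The depth was 14877647 and 18294056 reads in the controls against 14856104, 15103292 and 17811940 in siLIX1L 1, 2 and 3. Values are given as reads, as RPM (reads per 1000000 of these totals) or, between genes, as RPM per kb of exon; SDs are over 2 control and 3 siLIX1L libraries, and intervals cover counting error only. SiLIX1L 1 and 2 were much closer to each other (a chi-square of 5.38 per gene) than any other pair (52.7 to 157), and the controls were farther from each other (115) than control 1 was from the siLIX1L libraries (89.5 to 99.8). LIX1L itself stood at 26.4 and 35.5 RPM in the controls against 6.60, 7.08 and 3.65 in siLIX1L 1, 2 and 3, and fell by 0.87 (SE 0.11) on the log2(FPKM + 1) scale (limma, adjusted p = 0.0384); it reached the minimum of that test, 1 FPKM in 2 libraries, through the controls alone. The stellate cell genes COL1A1, COL3A1 and PDGFRB had at least 694 reads in every library, whereas DES was at 0 to 13 reads and GFAP at 6 to 16. The hepatocyte markers APOB, TTR and FGB were listed at 0 in every library and ALB at 0 or 1 read. The summed level of the 10 hepatocyte markers was 8.67 and 15.5 RPM in the controls and 3.97 to 6.23 in the siLIX1L libraries, and that of 8 macrophage and leukocyte markers was 11.2 and 37.9 against 5.84 to 9.53, most of it CD14 (131 and 653 against 84 to 118 reads). The 8 liver endothelial markers summed to 9.88 and 4.86 against 5.18 to 9.07 RPM, and the 6 cholangiocyte markers to 59.2 and 40.1 against 68.4 to 110, most of it SOX9. The 20 stellate markers summed to 4331 and 10830 against 7159 to 7801 RPM. Limma called 1 of them, NT5E, higher and none lower (5028 and 4708 against 8743, 10101 and 13369 reads, adjusted p = 0.0493, and 0.0558 in edgeR), and edgeR called 1, ACTA2, lower and none higher (580 and 647 against 132, 127 and 263 reads, adjusted p = 0.0497). Over all genes tested limma called 1.13% lower and 0.743% higher, and edgeR 0.507% and 0.384%. The part of other cell types in the results was not tested. Fewer cells that express a gene and less RNA per cell cannot be told apart in these libraries.

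Of the 9 genes, 7 had enough reads to be tested with edgeR on reads, and the other two, LRAT and CRABP1, were at or near 0. Chemerin was the only member called by edgeR (adjusted p = 0.0373), with a mean 9.02-fold lower in the siLIX1L libraries. Over all genes tested edgeR called 0.507% lower. The call was lost without any single siLIX1L library (edgeR adjusted p = 0.0832 to 0.209). STRA6 and CRABP2 had lower means too, by 5.25-fold and 3.85-fold, with adjusted p-values just above 0.05 in edgeR (0.0549 and 0.0797). DESeq2 called chemerin, STRA6 and CRABP2 alike, with 1673 of all 16905 genes called in either direction. RARA, RARG and RXRA had group means within 1.13-fold of each other, and RARB was low in a single library. All 3 siLIX1L libraries lay below both controls for 5 of the 9 genes (CRABP2, STRA6, RARB, RARG and RARRES2) and above both for none; among all 13026 genes tested with edgeR, 21.8% lay below without overlap and 22.2% above.

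**Figure D1:**
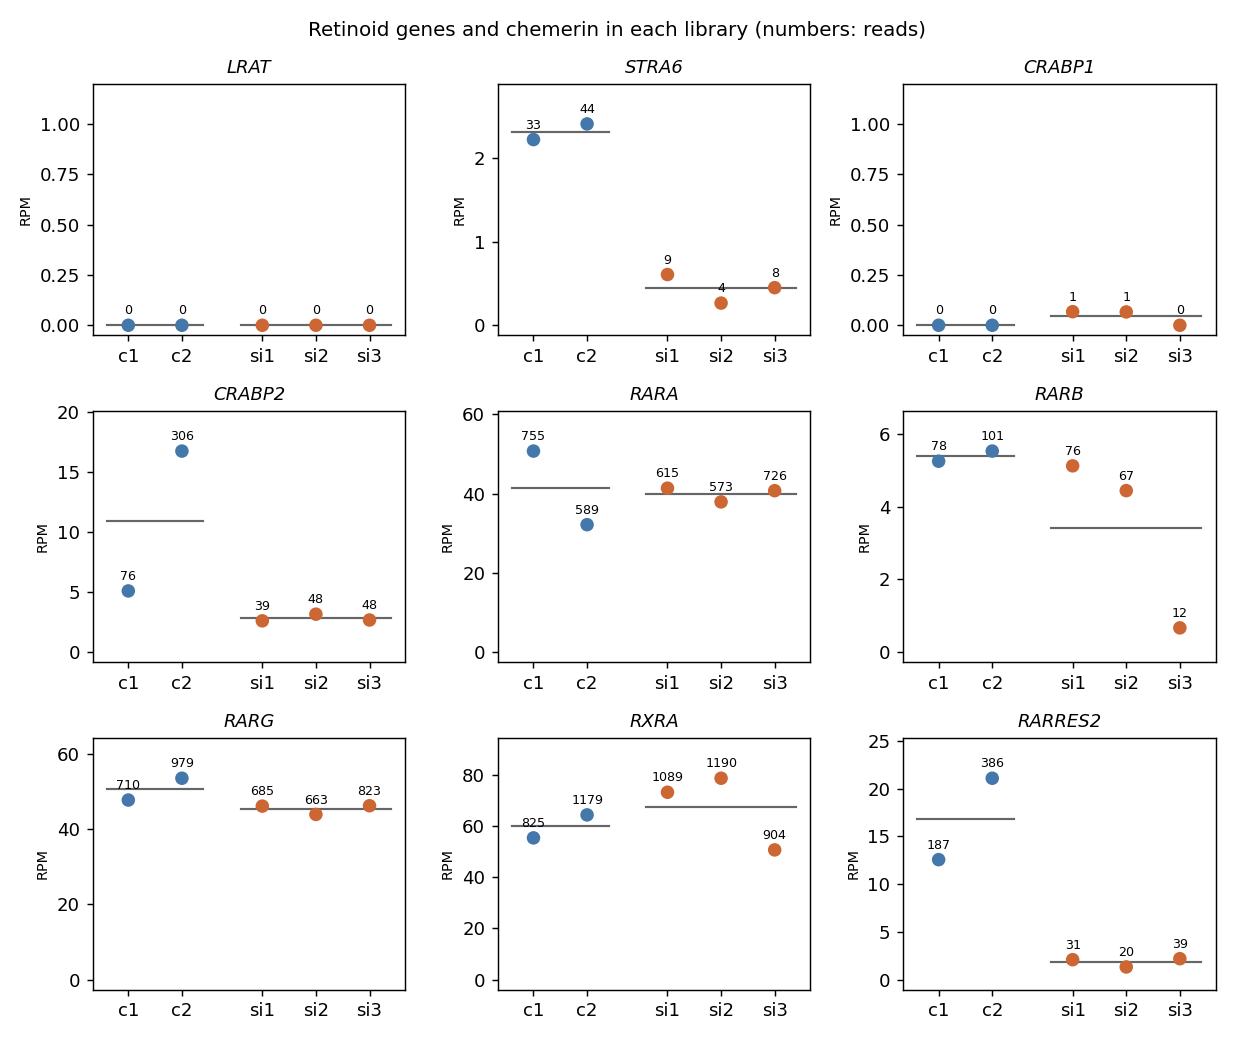
Level of each of the 9 genes in RPM (y axis, linear, scaled per gene) in control 1 and 2 (c1 and c2, blue) and siLIX1L 1, 2 and 3 (si1 to si3, orange), with the number of reads above each point and the group mean as a line. RARRES2 and STRA6 separate the groups by more than the spread within them, CRABP2 is set apart mainly by control 2, and RARB is low in siLIX1L 3 alone.

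LRAT, the enzyme that makes retinyl esters for storage, had no read in any of the 5 libraries (ENSG00000121207; chr4:154626945-154753118, + strand). A count of 0 allows up to 3 reads, which is 0.164 to 0.202 RPM at these depths, so a level below that was not detectable. The 8 genes that nearly every cell uses and that were checked for values lost upstream (ACTB and GAPDH among them) were at 0 in no library, with 3242 reads or more. RPS10, RPL17 and RPL36A, which encode ribosomal proteins and have near-identical copies elsewhere in the genome, had only 20 to 84 reads; whether the assignment of reads sets these values was not tested. LRAT is also a defining marker of quiescent stellate cells, and it was not detected in these libraries in either group.

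STRA6, the membrane receptor that takes up retinol from its plasma carrier (ENSG00000137868; chr15:74179466-74212267, - strand), had 33 and 44 reads in the controls against 9, 4 and 8 in siLIX1L 1, 2 and 3. In RPM these are 2.22 and 2.41 against 0.606, 0.265 and 0.449, so both controls were alike and every siLIX1L library was far below them. The means were 2.31 ± 0.132 and 0.440 ± 0.171 RPM, a 5.25-fold lower level (5.28-fold from pooled reads, exact 95% counting interval 3.22 to 9.01). The edgeR log2 fold change was -2.39 (SE 0.45, adjusted p = 0.0549), which does not pass the threshold of 0.05 and rests on a gene that reached the read minimum through the controls alone, while DESeq2 gave an adjusted p of 0.00654. Without any single siLIX1L library the edgeR adjusted p was 0.0968 to 0.266. Without control 1 or control 2 the mean was 5.47-fold or 5.04-fold lower. STRA6 was a rare transcript in either group, with 6.20% of the genes tested below it in the controls and 0.461% in the siLIX1L libraries on the scale of RPM per kb of exon. CCDC33, which overlaps STRA6 on the opposite strand, had 0 or 1 read in each library.

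The genes of vitamin A uptake, storage and ester breakdown, a list of 24 of which 23 were in the files, gave no call in edgeR. Of 14 tested, 12 had a lower and 2 a higher mean, and none passed. At an unadjusted p under 0.05 stood 5 lower and 1 higher, against 3355 of all 13026 genes. DESeq2 called 3 lower and 1 higher, against 1673 of all 16905 genes in either direction. The median edgeR log2 fold change was -0.52 against -0.04 over all genes tested. STRA6 had the lowest fold change of the 14. PLIN2, the coat protein of lipid droplets, had 7240 and 1744 reads in the controls against 1451, 1437 and 1644 in the other libraries, and control 1 alone was high. The lipase gene PNPLA2 was at 1172 and 1281 against 789, 711 and 881 reads, a 1.49-fold lower mean that did not pass in edgeR, and SCARB1, a lipoprotein receptor that can also bring in carotenoids, overlapped between groups. PNPLA3, another lipase gene, was at 82 and 136 against 245, 241 and 214 reads, 2.29-fold higher in mean RPM without overlap (edgeR adjusted p = 0.0777, DESeq2 0.00498), and was chosen after its values were seen.

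CRABP1 and CRABP2 are small cytoplasmic proteins that hold retinoic acid. CRABP1 (ENSG00000166426; chr15:78340324-78348230, + strand) had 0 reads in both controls and in siLIX1L 3 and 1 read in siLIX1L 1 and 2, within the limit of a count of 0. CRABP2 (ENSG00000143320; chr1:156699606-156705816, - strand) was therefore the form expressed, with 76 and 306 reads in the controls against 39, 48 and 48 in siLIX1L 1, 2 and 3. The siLIX1L libraries were close to each other, at 2.63, 3.18 and 2.69 RPM, and the controls were not, at 5.11 and 16.7. The means were 10.9 ± 8.22 and 2.83 ± 0.301 RPM, a 3.85-fold lower level, but the 2 means were no farther apart than the SD of the controls. The edgeR log2 fold change was -1.98 (SE 0.50, adjusted p = 0.0797), and DESeq2 gave 0.00417. Control 2 decides the size: without it the mean was 1.80-fold lower, and without control 1 it was 5.90-fold lower. CD14 and the matrix gene LUM were also high in control 2 among the 5 libraries (653 and 1705 reads, against 131 and 241 in control 1), and their part in the value of CRABP2 was not tested.

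On the scale of RPM per kb of exon, CRABP2 was at 4.64 in control 1, below the median of 6.13 of the genes tested there, and at 15.2 in control 2, the highest of the 9 genes in that library, and stood at 2.39 to 2.89 in the siLIX1L libraries. By the smallest root mean square difference of centred log2(RPM + 0.5) over the 5 libraries, among 10402 genes with a mean of at least 100 reads, the genes most like CRABP2 were SERPING1 (0.0567), F10 (0.117) and SULF1 (0.121). SERPING1, which encodes an inhibitor of complement C1, was at 14.4 and 45.5 RPM in the controls against 7.81, 8.47 and 7.41 in siLIX1L 1, 2 and 3, so it shared the high value of control 2. The clearance enzymes gave few reads: CYP26A1 had 5 and 4 reads against 1, 1 and 0, and CYP26B1 had 50 and 41 against 47, 49 and 45. FABP5, another carrier of retinoic acid, had 20 to 33 reads in each library, and its reads may be split with copies elsewhere in the genome. Of the 8 genes of retinoic acid binding and clearance, 3 were tested with edgeR and none passed. CRABP2 alone had an unadjusted p under 0.05, against 3355 of all 13026 genes.

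Among the enzymes between retinol and retinoic acid, 1 gene passed the test. DHRS3, an enzyme that turns retinal back into retinol and is itself a target of retinoic acid, had 418 and 946 reads in the controls against 80, 78 and 36 in siLIX1L 1, 2 and 3. It fell by 3.29 on the log2 scale (SE 0.46; edgeR, adjusted p = 0.0427), a 9.52-fold lower mean, and was called only by the tests on reads, since its FPKM lies under the minimum of the limma test. DHRS3 alone passed of 13 genes tested with edgeR in the list of retinol and retinal oxidation and reduction (8 lower and 5 higher in all, median -0.30). Over all genes tested edgeR called 0.507% lower and 0.384% higher, with a median of -0.04. Without any single siLIX1L library DHRS3 did not pass (edgeR adjusted p = 0.0832 to 0.209). The 3 genes of this list with the highest level, ADH5, RDH11 and RETSAT, had mean ratios within 1.23-fold. Among the retinal dehydrogenases, which make retinoic acid, ALDH1A3 had 255 and 319 reads against 462, 435 and 273 (edgeR adjusted p = 0.341), ALDH1A1 had 0 to 2 reads and ALDH1A2 3 to 16. AOX1, an oxidase that can also act on retinal, had 983 and 456 reads against 1116, 1105 and 1846, higher without overlap in RPM (edgeR adjusted p = 0.205). DHRS3, AOX1, ALDH1A3, ALDH1A1 and ALDH1A2 are named here after their values were seen.

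All 6 receptors had reads in every library, but RXRG had only 3 to 22, its lowest within the limit of a count of 0. None passed the test in limma or edgeR, nor reached an unadjusted p under 0.05 in edgeR, nor passed in DESeq2 (0 of 6). RARG (ENSG00000172819; chr12:53210567-53232980, - strand) had 710 and 979 reads in the controls against 685, 663 and 823 in siLIX1L 1, 2 and 3, or 47.7 and 53.5 against 46.1, 43.9 and 46.2 RPM. The siLIX1L libraries lay just below both controls, by 1.11-fold in the mean (50.6 ± 4.10 against 45.4 ± 1.31 RPM). The log2 difference was -0.11 (SE 0.12, adjusted p = 0.590) in limma and -0.17 (SE 0.18, adjusted p = 0.582) in edgeR. In limma it turned to 0.01 when a trend on the length and GC content of the longest coding transcript was removed. RARA (ENSG00000131759; chr17:40309192-40357643, + strand), the receptor found in most tissues, had 755 and 589 reads against 615, 573 and 726. Control 1 was highest and control 2 lowest of the 5 libraries, at 50.7 and 32.2 RPM, with the siLIX1L libraries between them at 37.9 to 41.4. The edgeR log2 fold change was -0.05 (SE 0.22, adjusted p = 0.903), and it turned to 0.28 without control 1.

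RARB (ENSG00000077092; chr3:25174332-25597932, + strand), known as a target of retinoic acid through a repeat of this kind, had 78 and 101 reads in the controls against 76, 67 and 12 in siLIX1L 1, 2 and 3. In RPM these are 5.24 and 5.52 against 5.12, 4.44 and 0.674, so siLIX1L 1 and 2 were near the controls and siLIX1L 3 was 7.59-fold below siLIX1L 1. The means were 5.38 ± 0.197 and 3.41 ± 2.39 RPM, and the edgeR log2 fold change was -0.69 (SE 0.68, adjusted p = 0.551). Without siLIX1L 3 the mean was 1.13-fold lower, and with it 1.58-fold. LIX1L was lowest in the same library. TOP2B overlaps the end of RARB on the opposite strand and had 1451 and 3751 reads in the controls against 1953, 2116 and 3017 in siLIX1L 1, 2 and 3, so its reads did not move with RARB; whether strand was kept in counting is not stated.

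RXRA (ENSG00000186350; chr9:134317098-134440585, + strand), the partner receptor best known in liver, had 825 and 1179 reads in the controls against 1089, 1190 and 904 in siLIX1L 1, 2 and 3. SiLIX1L 1 and 2, at 73.3 and 78.8 RPM, were above both controls (55.5 and 64.4), and siLIX1L 3, at 50.8, was below them. The means were 59.9 ± 6.36 and 67.6 ± 14.9 RPM and the edgeR log2 fold change was 0.15 (SE 0.24, adjusted p = 0.715). RXRB, which is no member, was the rexinoid receptor with the highest level per kb of exon, and RXRG the lowest. RXRA made up 28.3 and 28.9% of the 3 rexinoid receptors in the controls against 38.4, 41.2 and 26.4% in siLIX1L 1, 2 and 3. The other receptors that pair with RXRA also gave no call, with 11 of 13 tested with edgeR, 1 at an unadjusted p under 0.05, and a median log2 fold change of 0.24; NR1H2, PPARD and VDR were those with the highest level. Of the receptor coregulators, 14 of 16 tested were higher in the mean, 9 of them without overlap (22.2% of all genes), with a median of 0.51. None passed in edgeR, and 6 had an unadjusted p under 0.05, against 3355 of all 13026 genes. NCOA3, a coactivator, was at 1054 and 963 reads against 2479, 3038 and 1572 (adjusted p = 0.0876). DESeq2 called 4 of the coregulators higher, against 1673 of all 16905 genes in either direction.

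Within the retinoic acid receptors, RARA and RARG shared nearly all of the level in every library. Per kb of exon RARG made up 43.4 and 55.7% in the controls against 47.0, 48.2 and 50.6% in siLIX1L 1, 2 and 3. The ratio of RARA to RARG was 1.15 in control 1, 0.652 in control 2 and 0.937 to 0.973 in the siLIX1L libraries, so the controls lay on either side of the others. RARB took 5.06% (exact 95% interval 4.02 to 6.27) and 6.05% (4.96 to 7.30) of the reads of the 3 receptors in the controls, 5.52% (4.38 to 6.86) and 5.14% (4.01 to 6.48) in siLIX1L 1 and 2, and 0.769% (0.398 to 1.34) in siLIX1L 3. That library alone was outside the counting intervals of the others. With 2 against 3 libraries no permutation test of such a share can pass 0.05, and none was run.

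**Figure D2:**
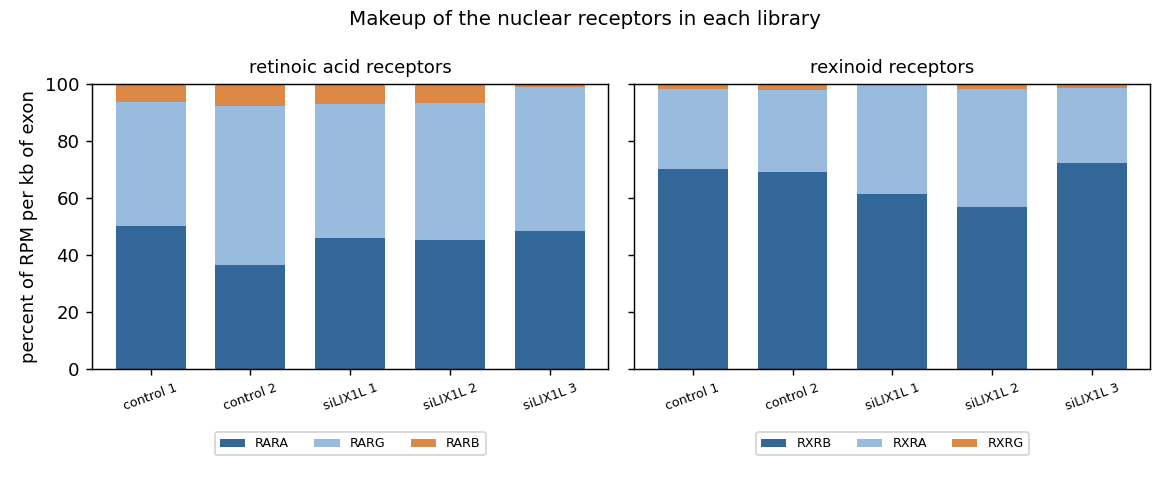
Makeup of the retinoic acid receptors (left) and rexinoid receptors (right) in each library, in percent of their summed RPM per kb of exon (y axis; bars stack to 100). RARA and RARG split the left bars, with 43.4 and 55.7% RARG in the 2 controls, and the RARB segment narrows in siLIX1L 3 alone; RXRA is at 38.4 and 41.2% in siLIX1L 1 and 2 and 26.4% in siLIX1L 3.

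RARRES2, the gene of chemerin (ENSG00000106538; chr7:150338317-150341674, - strand), had 187 and 386 reads in the controls against 31, 20 and 39 in siLIX1L 1, 2 and 3. In RPM these are 12.6 and 21.1 against 2.09, 1.32 and 2.19, so the lowest control was well above the highest siLIX1L library. The deposited FPKM were 3.74 and 6.28 against 0.621, 0.394 and 0.652. The means were 16.8 ± 6.03 and 1.87 ± 0.473 RPM, a 9.02-fold lower level, and pooled reads gave 9.17-fold with an exact 95% counting interval of 7.33 to 11.6. RARRES2 fell by 1.92 (SE 0.20) on the log2(FPKM + 1) scale (limma, adjusted p = 0.0384), a scale that understates the change of a low gene. On reads it fell by 3.19 on the log2 scale (SE 0.37; edgeR, adjusted p = 0.0373). Of all genes tested, 1.13% were called lower and 0.743% higher by limma, and 0.507% and 0.384% by edgeR. RARRES2 and RARG were the 2 of the 9 genes that reached the minimum of the limma test, 1 FPKM in 2 libraries, and RARRES2 reached it through the controls alone. Hepatocytes are a main source of chemerin, and their markers summed to 8.67 and 15.5 RPM against 3.97 to 6.23, mostly reads of ASGR1 and SERPINA1. ALB was at 0 or 1 read, and APOB, TTR and FGB were at 0 in all libraries. The part of these markers in the fall of RARRES2 was not tested.

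With control 1 or control 2 left out, the mean of RARRES2 was 11.3-fold and 6.73-fold lower. A fit with 1 control has no spread between controls, so only the fold is given. The call did not hold without any single siLIX1L library. The adjusted p without siLIX1L 1, 2 and 3 was 0.0993, 0.209 and 0.0832 in edgeR and 0.144, 0.228 and 0.0715 in limma. The mean stayed 7.87-fold to 9.87-fold lower in those subsets. It was also lost with siLIX1L 1 and 2 averaged into 1 library (limma adjusted p = 0.175).

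On the scale of RPM per kb of exon, RARRES2 moved from above to below most genes: 60.0% of the genes tested had a lower mean in the controls and 18.3% in the siLIX1L libraries. The genes most like RARRES2 over the 5 libraries by the same root mean square measure were CLDN11 (0.330), FOSB (0.341) and OLR1 (0.393), which encode a tight junction protein, a transcription factor of the AP-1 family and a receptor for oxidised lipoprotein. CLDN11 was at 320 and 411 RPM against 65.7, 55.7 and 101, and FOSB at 31.7 and 82.4 against 5.25, 5.83 and 5.33. No gene came as close to RARRES2 as QSOX1 did to RARG (0.0104) or SMARCB1 to RARA (0.0348). The measure is not scaled to the spread of a gene, so these distances cannot be compared directly. Over the 5 libraries the SD of the values compared was 1.60 for RARRES2, against 0.106 for RARG and 0.234 for RARA. CRABP2, with an SD of 1.03, had its nearest gene at 0.0567.

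RARRES2 was 1 of 3 genes called lower by edgeR among 28 known retinoic acid response genes, and none was called higher (0.507% and 0.384% of all genes tested). The list also holds the members RARB, STRA6 and CRABP2, and it was chosen with earlier results known, so it is not independent evidence of a direction. Of 23 tested with edgeR, 16 had a lower and 7 a higher mean, 9 lay below and 2 above without overlap (21.8% and 22.2% of all genes tested), and the median log2 fold change was -0.26. The other called genes were DHRS3, given above, and RARRES1, a membrane protein first found as induced by a synthetic retinoid. RARRES1 had 71 and 149 reads in the controls against 9, 12 and 4 in siLIX1L 1, 2 and 3, and fell by 3.61 on the log2 scale (SE 0.53; edgeR, adjusted p = 0.0451). Its mean was 11.9-fold lower, and it met the read minimum of edgeR in 2 libraries only through the controls. MFSD1, which overlaps RARRES1 on the opposite strand, had 1039 and 1200 reads against 863, 901 and 1572.

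These 3 genes shared the order of the controls, each higher in control 2. Without control 1 the means of RARRES2, DHRS3 and RARRES1 were 11.3-fold, 12.3-fold and 15.0-fold lower. Without control 2 they were 6.73-fold, 6.71-fold and 8.81-fold lower. With any single siLIX1L library left out, none of the 3 passed (edgeR adjusted p = 0.0832 to 0.209). CTSH and ICAM1 had lower means by 1.89-fold and 2.39-fold (edgeR adjusted p = 0.0630 and 0.0808). Among the others, CYP26B1, TGM2 and HOXB4 had group means within 1.09-fold of each other, and NRIP1 was higher without overlap (edgeR adjusted p = 0.142, which does not pass). PLAAT4, another gene named for its induction by a retinoid, had 151 and 619 reads against 184, 180 and 213, high in control 2 alone. In limma 12 of the 28 could be tested and 1, RARRES2, was called lower (1.13% of all genes tested). DESeq2 called 7 lower and 0 higher, against 1673 of all 16905 genes in either direction.

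**Figure D3:**
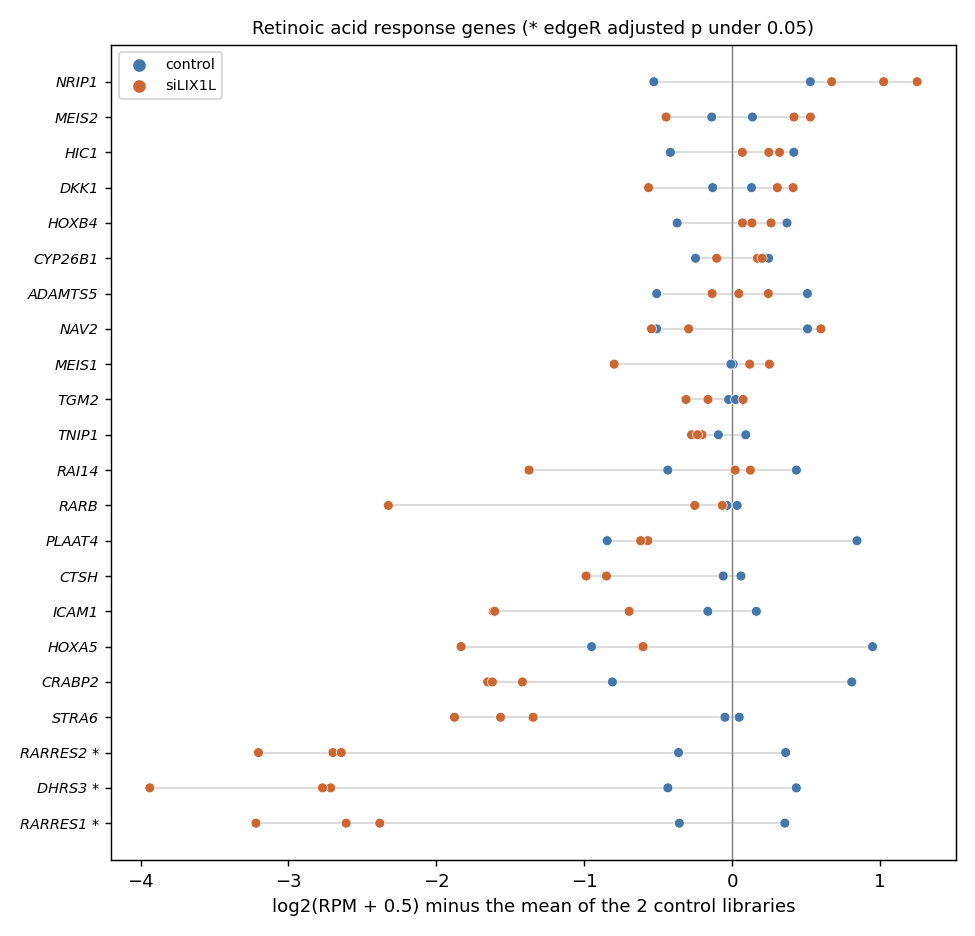
22 of the 23 retinoic acid response genes tested with edgeR (rows), as log2(RPM + 0.5) in each library minus the mean of the 2 controls (x axis); blue points are controls, orange points siLIX1L libraries, and an asterisk marks an edgeR adjusted p under 0.05. RARRES2, DHRS3 and RARRES1 lie at the left with all siLIX1L libraries below both controls, STRA6 and CRABP2 come next, and most other rows overlap.

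The receptors of chemerin were expressed at low to moderate levels. CMKLR1, the signalling receptor of leukocytes, had 11 and 20 reads in the controls against 4, 7 and 11 in siLIX1L 1, 2 and 3 (edgeR adjusted p = 0.267). CMKLR2, the other signalling receptor, had 433 and 208 reads against 284, 294 and 373 and overlapped between groups. CCRL2, which binds chemerin without signalling, had 42 and 58 reads against 73, 92 and 100; all siLIX1L libraries lay above both controls, but the test did not pass (edgeR adjusted p = 0.142). Of 16 genes for proteases that can trim chemerin, 8 were tested with edgeR and none passed. At an unadjusted p under 0.05 stood 2 of them, against 3355 of all 13026 genes. Limma called CAPN2, a calpain subunit, higher (4072 and 5137 reads against 8006, 8217 and 10394, adjusted p = 0.0443, against 0.0549 in edgeR). Of all genes tested limma called 0.743% higher. The plasminogen activator genes PLAT and PLAU, whose proteins act upstream of plasmin, had lower means by 1.78-fold and 1.94-fold (edgeR adjusted p = 0.0754 and 0.313), the latter with siLIX1L 3 far below the rest at 370 reads. PLAT and PLAU are named after their values were seen.

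**Figure D4:**
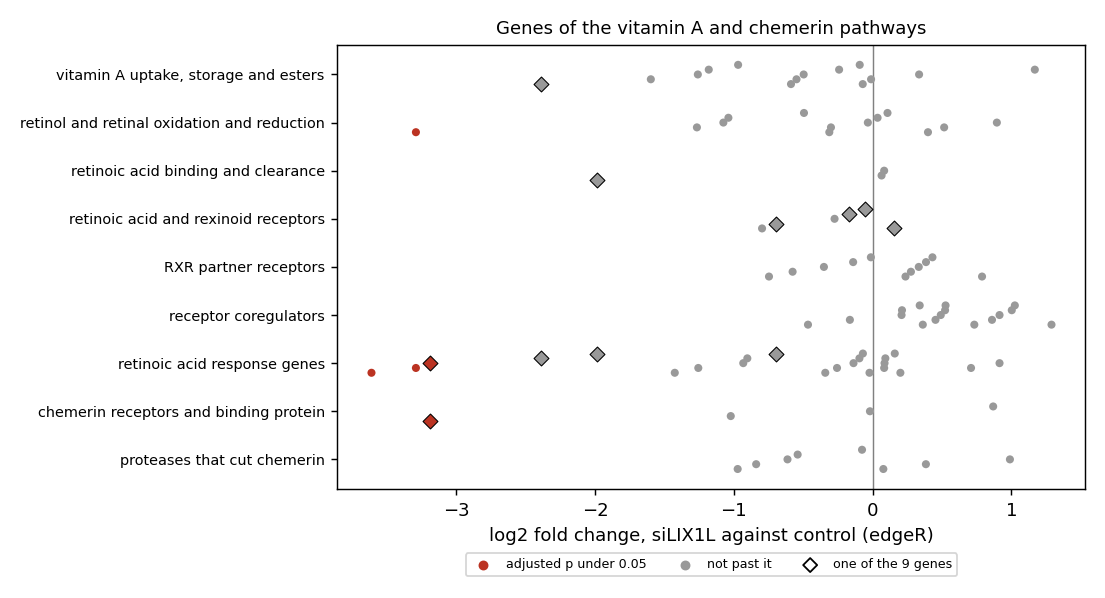
Log2 fold change of siLIX1L against control (x axis, edgeR) for each gene tested in 9 lists of the vitamin A and chemerin pathways (rows; vertical offsets within a row carry no meaning). Red marks an adjusted p under 0.05 and diamonds mark the 9 genes described here, some of which stand in more than 1 row; RARRES2, DHRS3 and RARRES1 are the 3 red genes; the receptor row runs from -0.80 (RXRG) to 0.15 (RXRA) and holds no red point.

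Over the 9 pathway lists together, 133 distinct genes were in the files and 91 were tested with edgeR. Of these, 3 were called lower and 0 higher. Over all genes tested edgeR called 0.507% lower and 0.384% higher. The lists were chosen with earlier results of these data known, so the counts are not independent evidence. RARRES1, among those called, met the read minimum only through the controls.

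Ranked by mean RPM per kb of exon in the controls, the 9 genes stood in the order CRABP2 (9.93 ± 7.47), RARG (9.87 ± 0.799), RARA (8.77 ± 2.77), RARRES2 (8.76 ± 3.14), RXRA (5.41 ± 0.574), RARB (1.46 ± 0.0532), STRA6 (0.301 ± 0.0172) and then CRABP1 and LRAT at 0. The first 4 did not differ beyond their spread, and RXRA lay below all of them except CRABP2 in both controls. RARB and STRA6 were each apart from their neighbours in both controls, and the median of the genes tested was 6.13 and 5.65 in control 1 and 2. In the siLIX1L libraries the order was RARG (8.86 ± 0.255), RARA (8.46 ± 0.389), RXRA (6.10 ± 1.34), CRABP2 (2.58 ± 0.274), RARRES2 (0.972 ± 0.246), RARB (0.922 ± 0.647), STRA6 (0.0572 ± 0.0222) and CRABP1 (0.0448 ± 0.0388), with LRAT at 0. RARG lay slightly above RARA in every siLIX1L library (ratio of RARA to RARG 0.937 to 0.973). RARRES2 and RARB, and STRA6 and CRABP1, did not differ beyond their spread. Chemerin and CRABP2 had means close to those of RARG and RARA in the controls and lay below all 3 of RARG, RARA and RXRA in every siLIX1L library.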

How the data were processed

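The members and gene lists were chosen with earlier results of these data known. The authors deposited FPKM per gene for each library, and raw read counts and gene lengths for siLIX1L 3 alone, per the file headers. Bowtie 0.12.2 and mm8, a mouse build that does not match the human Ensembl IDs, come from the submitters' processing notes; for the counting tool and strandedness, the sources used here give nothing. The lengths equal the gene span, introns included, in GENCODE 29 (GRCh38) for 98.2% of the genes found there, so the FPKM of long genes is low. FPKM times length gave whole reads for 100% of values (tolerance 0.01 reads), equal to the deposited counts for all 19936 genes of siLIX1L 3; edgeR and DESeq2 used these reads, called counts of reads here.

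Log2(FPKM + 1) was tested with limma 3.58.1 in R 4.3.3 (trend, robust, two-sided, Benjamini-Hochberg, threshold 0.05) as the main test, for the 6464 genes that reached 1 FPKM in 2 or more libraries. Since 7 of the 9 members lie under that minimum, edgeR 4.0.16 (quasi-likelihood, TMM, 13026 genes), an alternative listed with DESeq2 1.42.0 (16905 genes), is given beside it. Limma called 121 genes, edgeR 116 and DESeq2 1673. The SE given with an edgeR log2 fold change is derived: its size divided by the square root of the F statistic of the test. Named are the 9 members, LIX1L, in each list up to 4 genes past the limma threshold or else the 3 with the highest level, and the 3 genes most like each member with at least 100 reads on average; every other gene named was chosen after its values were seen. List counts include 2 genes that are not reported here. The main limma fit and the edgeR and DESeq2 fits of all libraries were tested on simulated data, and the other settings were not. The simulated libraries were drawn independently, without the closeness of siLIX1L 1 and 2. The sensitivity part below gives the other settings; edgeR without each library, and the counts of retinoic acid response genes in each fit, were added after seeing the data. Promoter windows are from RefSeq (GRCh38.p14).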

Additional observations from a re-analysis of the deposited data

How the results depend on the processing

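RARRES2 kept its direction in all 18 fits that tested it. Its limma adjusted p was 0.103 without a minimum level and 0.175 with siLIX1L 1 and 2 averaged. It was 0.0615 with a trend on the length and GC content of the longest coding transcript removed (log2 difference -1.48). With 1 siLIX1L library left out it was 0.0715 to 0.228 in limma and 0.0832 to 0.209 in edgeR (0.0993, 0.209 and 0.0832 without siLIX1L 1, 2 and 3). RARRES2 is not tested at 5 FPKM or, in limma, without a control, since it then falls under the minimum. LIX1L gave 0.103, 0.175, 0.0615, 0.0715 to 0.228 and 0.0832 to 0.209 (again 0.0993, 0.209 and 0.0832) in the same settings. The number of genes called, 121, became 0 without a minimum (3407 at an unadjusted p under 0.05), 0 with siLIX1L 1 and 2 averaged (953), 0 with the trend removed (1496), 1673 in DESeq2, and 0 to 1517 with 1 library left out (1517 without control 1, 258 without control 2, 0 without siLIX1L 1, 2 or 3, where 1011, 882 and 1764 had an unadjusted p under 0.05). The number of retinoic acid response genes called lower, 1 in limma, became 0 without a minimum, 0 at 5 FPKM, 0 with the averaging and 0 with the trend removed. It was 2 with the replicate block, 3 in edgeR and 7 in DESeq2. Without siLIX1L 1, 2 or 3 it was 0 in both limma and edgeR. The cause of these changes was not tested. RARG turned sign with the trend removed (log2 difference 0.01, adjusted p = 0.970), and RARA in edgeR without control 1 (0.28). STRA6, CRABP2, RARB and RXRA kept their sign in 8 of 8 fits. Same-numbered libraries did not deviate together (r = -0.116 and -0.117 across genes). These values are not independent, since the deviations of the controls mirror each other, and siLIX1L 1 and 2 differ little. The check therefore cannot tell whether the numbers pair the libraries. With the replicate block limma called 94 genes, with RARRES2 at an adjusted p of 0.0148 and LIX1L at 0.0284. STRA6 at 4 to 44 reads, and LRAT and CRABP1 at 0 or 1, are limited by depth.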
